A study of Mus musculus with 15 samples.

Results

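SOX9-Halo is a mouse small intestinal organoid line that expresses SOX9 fused to a HaloTag, and it was sequenced once while its organoids still formed buds and once after they had become round spheroids. The members of the comparison are the 3 SOX9-Halo_spheroid and the 3 SOX9-Halo_budding libraries, chosen by their labels, that is 6 of the 15 libraries of the series, with all 17560 genes that passed the filter on low counts. The question was which genes change between the budding and the spheroid form of 1 line. The study made poly-A RNA sequencing libraries of 5 organoid conditions with 3 biological replicates each: control organoids with a nuclear HaloTag (Halo-NLS), SOX9-Halo and SOX9-mEGFP organoids of budding form, and SOX9-Halo and SOX9-mEGFP spheroids.

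All SOX9-Halo organoids came from small intestinal crypts of adult female mice on a C57BL/6J background and carried the lentiviral transgene L30prom_Sox9-GDGAGLIN-Halo-V5_IRES_Puro, in which the L30 promoter drives the SOX9 fusion and an IRES adds puromycin resistance. The SOX9-Halo spheroids carried L30prom_H2B-GDGAGLIN-mEGFP-V5_IRES_Zeo as a second transgene, a green fluorescent histone with Zeocin resistance. They were also at a later passage than the budding organoids, so that form, time in culture and the second transgene cannot be told apart. Halo-NLS organoids carried L30prom_V5-Halo-GDGAGLIN-NLS_IRES_Puro. In the SOX9-mEGFP line the fluorescent protein mEGFP replaces the HaloTag (L30prom_Sox9-GDGAGLIN-mEGFP-V5_IRES_Puro), and its spheroids carried a second transgene of their own, L30prom_H2B-GDGAGLIN-mScarletI-V5_IRES_Neo, a red fluorescent histone. Each library pooled wells of 1 culture, so p-values measure the spread between cultures of 1 line and not between animals.

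The intestinal epithelium is renewed from LGR5-positive stem cells at the crypt base, which give rise to absorptive enterocytes and to secretory Paneth, goblet, enteroendocrine and tuft cells. CDX1 and CDX2, HNF4A and HNF4G, and GATA factors hold the intestinal program in place. SOX9 is a transcription factor of the crypt base that is needed for Paneth cells. Fetal intestinal cells, and adult cells under repair after injury, grow as spheroids in culture, express genes such as Clu and Ly6a, and depend on YAP1 and its partners of the TEAD family.

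Read totals on genes ranged from 30086943 to 40559766 in the budding and from 28062722 to 34387436 in the spheroid libraries, so that 1 count corresponded to about 1 normalized count. Levels are given as normalized counts, which are counts divided by the TMM-scaled library size and brought to the mean size of the 15 libraries. They compare a gene between libraries and not genes with each other. Correlation of log2 values among replicates was 0.963 to 0.981 in budding organoids and 0.986 to 0.994 in spheroids. Mitochondrial transcripts made up 2.93 to 5.26% of reads in budding and 1.97 to 2.28% in spheroid libraries. Single libraries stood apart for some genes. Budding library 1 had the least Sox9, budding library 2 had high goblet cell transcripts, budding library 3 had the most Mki67 and Clu, and spheroid library 1 had high stress and chemokine transcripts. Their values stand with the genes concerned.

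Sox9 itself (chromosome 11, 112673009 to 112678586, GRCm39) was counted from the transgene and the endogenous gene together. Normalized counts were 1336, 10538 and 6838 in budding organoids and 10522, 14834 and 14812 in spheroids, against a mean of 530 in Halo-NLS organoids. The conditions overlapped, and the log2 fold change of 1.10 ± 0.55 (SE, n = 3 and 3) did not pass the test (edgeR adjusted p = 0.13). Sox9 was called when no filter on low counts was used. It was not called in a fit that pairs libraries by replicate number (log2 1.46). Of the 19 SOX family genes listed, 7 had enough counts to be tested. Sox4, a SOX factor of crypt progenitors, fell from 4893, 4093 and 5186 to 657, 644 and 638 normalized counts (log2 -2.87 ± 0.43). Sox12 fell as well (log2 -4.55 ± 0.51) and Sox21 rose (log2 1.93 ± 0.29).

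Between spheroids and budding organoids 1851 genes were called upregulated, which is 10.5% of the genes tested, and 2584 were called downregulated, which is 14.7%. The count of each gene list below stands against these shares. A gene was called when its adjusted p in edgeR's quasi-likelihood test did not exceed 0.01, it changed 2-fold or more, and its normalized counts averaged 10 or more across the 15 libraries. The 3 libraries of 1 condition lay wholly above or below those of the other in 4426 of the 4435 called genes. For comparison, 24.6% of all genes tested had every spheroid library above every budding library and 28.2% had every spheroid library below. The median log2 fold change of all genes tested was -0.08. Log2 changes of 4 or more were reached by 516 of the upregulated and, downwards, by 1193 of the downregulated genes. Among them 275 downregulated genes had no count in any spheroid library and 25 upregulated genes had none in any budding library.

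The 6 largest rises among well-expressed genes were in Capn6, Wnt7b, Wfdc2, Nat8l, Aldh3a1 and Aqp5. Wnt7b, a secreted Wnt ligand (chromosome 15, 85419638 to 85466674), went from 0.796, 0 and 0 to 3609, 3093 and 3006 normalized counts, a ratio of 10608 (exact 95% counting interval 1904 to 419053). Capn6, a calpain family member without protease activity (X chromosome, 142585227 to 142610467), went from 0, 0.973 and 0 to 3697, 3019 and 3236. Intervals of such ratios cover counting error only. Wfdc2, a secreted protease inhibitor-like protein, was at 0.796, 0 and 0.976 and then at 4513, 5245 and 6319. Aldh3a1, an aldehyde dehydrogenase known from cornea and stomach, was at 9228, 6092 and 5432 in spheroids, and the water channel Aqp5 at 5742, 5111 and 4326, each with no more than 2.93 in any budding library. Nat8l, which makes N-acetylaspartate, had no count in the 3 budding libraries and 623, 912 and 1139 normalized counts in spheroids, at least 325-fold higher with 3 counts per library taken as the floor. The 6 genes were chosen for large fitted rises without overlap between conditions, so their separation follows from the choice.

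The 6 largest falls were in Reg3a, Chp2, Reg1, Npl, Zg16 and Btnl6. Reg3a and Reg1 encode secreted C-type lectins of the REG family, and Reg3a (chromosome 6, 78357692 to 78360810) went from 3404, 2164 and 674 normalized counts to 0 in each spheroid library, at least 687-fold lower. Reg1 was at 8001, 5088 and 1866 in budding organoids and had 1 spheroid library with a count, at 1.18. Chp2, a calcineurin-like calcium-binding protein, was at least 615-fold lower. Btnl6, a butyrophilin-like gene of the kind that supports intraepithelial lymphocytes, was at least 320-fold lower, and Npl, a sialic acid lyase, at least 382-fold lower. Zg16, a lectin of goblet cell mucus, was at least 365-fold lower, with 1176, 1888 and 252 in budding organoids. Each of the 6 genes was present in all budding libraries, at levels that differed up to several-fold among them.

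The transcription factors of intestinal identity fell as a group, though not all of them. Of 20 tested, 14 were called down and 1 up, with a median log2 fold change of -3.60 against -0.08 for all genes. Cdx1 went from 3979, 5381 and 3510 to 2.37, 2.84 and 11.7 normalized counts (log2 -9.48 ± 0.64, edgeR adjusted p = 3.2e-08). Cdx2 (chromosome 5, 147237615 to 147244091) went from 9122, 12535 and 8113 to 97.1, 99.3 and 74.7 (log2 -6.78 ± 0.31, edgeR adjusted p = 1.3e-09), so that a low level stayed in every spheroid library. The Halo-NLS means were 12287 for Cdx1 and 14708 for Cdx2, near or above the budding levels.

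HNF4 factors activate enterocyte genes, and both fell by different amounts. Hnf4a was at 32069, 38562 and 28644 in budding organoids and at 1995, 1542 and 1296 in spheroids (log2 -4.36 ± 0.27). Hnf4g was at 6784, 3317 and 4576 and then at 2.37, 0 and 0.9, a ratio of 5044 (exact 95% counting interval 1726 to 24463). Gata6 (log2 -3.68 ± 0.31) and Pdx1 (log2 -2.79 ± 0.36) fell too, as did the nuclear receptors Nr5a2, Nr1i2, Ppara and Vdr and the lipid regulator Creb3l3 (log2 -9.71 ± 0.74). Gata4, in contrast, was at 5353, 9734 and 7024 in budding organoids and at 5975, 6632 and 7681 in spheroids, and the conditions overlapped (log2 -0.12 ± 0.25, edgeR adjusted p = 0.73). The epithelial factors Elf3 (log2 -0.29 ± 0.22) and Klf4 (log2 0.12 ± 0.33) did not pass the test either.

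**Figure D1:**
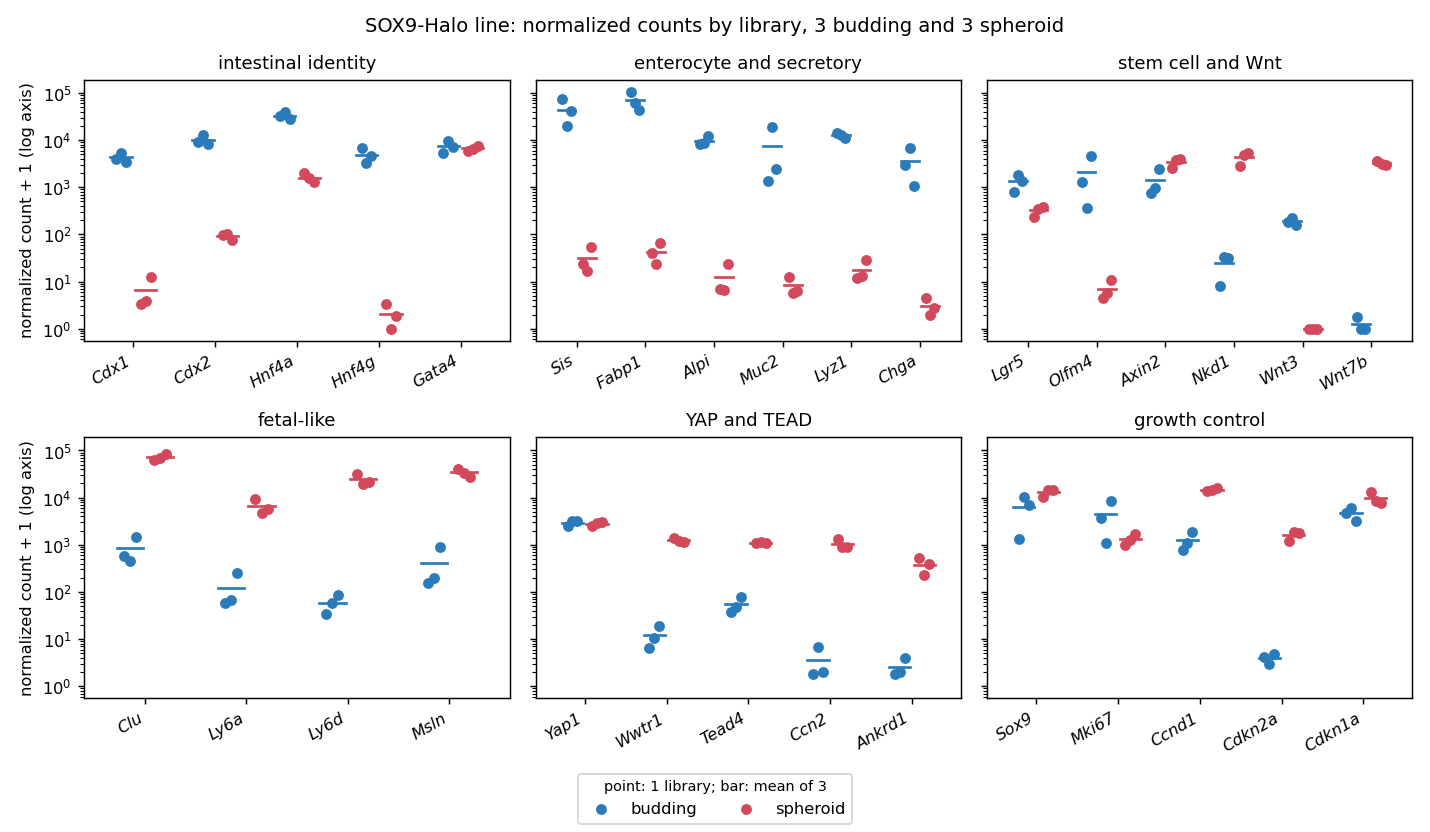
Normalized counts plus 1 on a log axis for selected genes in the 3 budding (blue) and 3 spheroid (red) SOX9-Halo libraries, with points for libraries and bars for means. Cdx1, Cdx2, Hnf4a and Hnf4g, the enterocyte and secretory genes and Olfm4 lie lower in every spheroid library, Clu, Wwtr1, Ccn2 and Cdkn2a lie higher, and Gata4, Yap1, Sox9 and Mki67 overlap.

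Enterocyte genes were near 0 in spheroids with few exceptions. Of 18 brush-border enzymes tested 17 were called down and none up, with a median log2 fold change of -9.23. Sis, which encodes sucrase-isomaltase, went from 73314, 19509 and 40821 to 22.5, 16.1 and 53.1 normalized counts (log2 -10.49 ± 1.15, edgeR adjusted p = 3.1e-06). Alpi, the intestinal alkaline phosphatase, went from 8368, 8681 and 12058 to 5.92, 5.68 and 22.5 (log2 -9.68 ± 0.68). The meprin subunit Mep1a showed the largest fall of the well-expressed enzymes (log2 -11.05 ± 0.59). Anpep, the aminopeptidase N of the brush border, was the exception, at 8949, 21802 and 19178 in budding organoids and 19991, 20212 and 23664 in spheroids (log2 0.36 ± 0.37, edgeR adjusted p = 0.49).

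The microvillus scaffold was lost in part. Of 16 genes tested 10 were called down and 1 up. Vil1, which encodes villin, fell from 35438, 41775 and 28298 to 4635, 3985 and 3244 normalized counts (log2 -3.15 ± 0.28), and the motor Myo1a fell from 13083, 14064 and 10572 to 73.4, 40.7 and 51.3 (log2 -7.84 ± 0.47). Cdhr5, a protocadherin that links microvillus tips, showed the largest fall (log2 -10.35 ± 0.58). Ezr, the ezrin that tethers actin to the membrane, was the one called up, from 11958, 15354 and 11444 to 33423, 26953 and 26969 (log2 1.17 ± 0.23). Villin transcripts thus remained well detected in every spheroid library.

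Genes for uptake of fat and of small nutrients fell together. Of 20 genes for fat absorption and chylomicrons 15 were called down and none up (median log2 -8.06), and of 19 nutrient transporters 16 were called down and 2 up (median log2 -8.18). The fatty acid-binding protein gene Fabp1 went from 106881, 60090 and 42602 to 40.3, 22.7 and 63.9 normalized counts, and the apolipoprotein gene Apoa4 from 27147, 21738 and 6691 to 9.48, 7.57 and 22.5. Abcg5, a sterol exporter subunit, fell by 11.09 ± 0.65 on the log2 scale. The glucose transporter gene Slc5a1 was at 40396, 54336 and 19238 and then at 77, 68.1 and 104. Slc3a1, the heavy chain of the cystine transporter, fell from 3847, 3254 and 2271 to 8.29, 2.84 and 8.1. The 2 that were called up were Slc3a2 (log2 1.34 ± 0.25), the heavy chain of CD98, and the glutamate transporter gene Slc1a1 (log2 2.86 ± 0.33), from 317, 426 and 328 to 2206, 2725 and 2831.

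Detoxifying enzymes followed. Of 46 cytochrome P450 genes tested 33 were called down and 5 up (median log2 -6.17), and of 53 conjugating enzymes 34 were down and 5 up (median log2 -3.22). Cyp2c55 fell from 46978, 39290 and 37968 to 30.8, 22.7 and 68.4 normalized counts, and the carboxylesterase gene Ces2a from 60457, 58320 and 52436 to 26.1, 14.2 and 59.4. Members of these families are similar in sequence, and only uniquely mapped reads were counted, so the split among close paralogs is uncertain. The P450s that were called up included Cyp1b1, from 9.55, 15.6 and 163 to 9883, 13433 and 16770 (log2 7.75 ± 1.12), while Cyp1a1, like Cyp1b1 a target of the aryl hydrocarbon receptor, fell from 1072, 1635 and 1712 to 20.1, 23.6 and 28.8 (log2 -5.91 ± 0.53).

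Genes of the secretory lineages were lower. Of 19 transcription factors of these lineages 14 were called down and none up. Atoh1, the factor that starts the secretory fate, went from 425, 541 and 260 normalized counts to 1.18, 0.946 and 0, a ratio of 618 (exact 95% counting interval 171 to 5105). Neurog3, which starts the enteroendocrine fate, went from 368, 448 and 464 to 0, 0 and 0.9. Its downstream factor Insm1 was at 293, 967 and 636 and then at 0, 0 and 0.9. Spdef, a factor of goblet and Paneth cells, fell less, from 916, 1194 and 543 to 109, 152 and 142 (log2 -2.71 ± 0.31). Foxa1, Foxa2, Bhlha15 and Xbp1 overlapped between the conditions and were not called.

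The products of these cells were lower as well. Of 17 Paneth cell products tested 12 were called down and 1 up. Lyz1, Paneth cell lysozyme, fell from 14238, 13080 and 11016 to 10.7, 12.3 and 27.9 normalized counts (log2 -9.52 ± 0.52), and the alpha-defensin gene Defa24 from 6454, 5380 and 6238 to 3.55, 6.62 and 4.5. Alpha-defensin genes are near-identical copies, and the division of reads among them is uncertain. Mmp7, the matrix metalloproteinase that activates defensins, fell from 183, 237 and 131 to 16.6, 14.2 and 12.6.

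Goblet cell products were called down in 8 of 9 cases, and Muc2, the main gel-forming mucin, fell from 1355, 18787 and 2446 to 11.8, 4.73 and 5.4 (log2 -10.03 ± 1.74, edgeR adjusted p = 0.00026). Budding library 2 alone carried the high Muc2 value, and its Fcgbp value of 201004 stood beside 31986 and 40555 in the other budding libraries. Tff3, a goblet cell trefoil factor, was at 25299, 34745 and 7849 in budding organoids and fell to 37.9, 18.9 and 22.5. Of 18 enteroendocrine products 17 were called down. Chga, the chromogranin A gene, went from 2940, 6820 and 1056 to 3.55, 0.946 and 1.8, and Chgb from 16456, 20024 and 4940 to 7.11, 5.68 and 9.9. Tac1, the tachykinin of enterochromaffin cells, had no count in the spheroid libraries and was at least 206-fold lower. In bulk libraries fewer cells of a type and less RNA per cell cannot be told apart.

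Of 11 tuft cell markers tested 3 were called down and 1 up. The one called up was Ptgs1, which encodes cyclooxygenase 1, from 7.96, 7.78 and 5.85 to 2945, 3078 and 3158 normalized counts (log2 8.70 ± 0.34, edgeR adjusted p = 5.8e-10). The tuft cell factor Pou2f3 fell in the same libraries, from 58.9, 102 and 89.8 to 11.8, 8.51 and 11.7, and Trpm5 fell by 2.16 ± 0.47 on the log2 scale, a call that was lost without spheroid library 1. Dclk1 overlapped between the conditions.

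**Figure D2:**
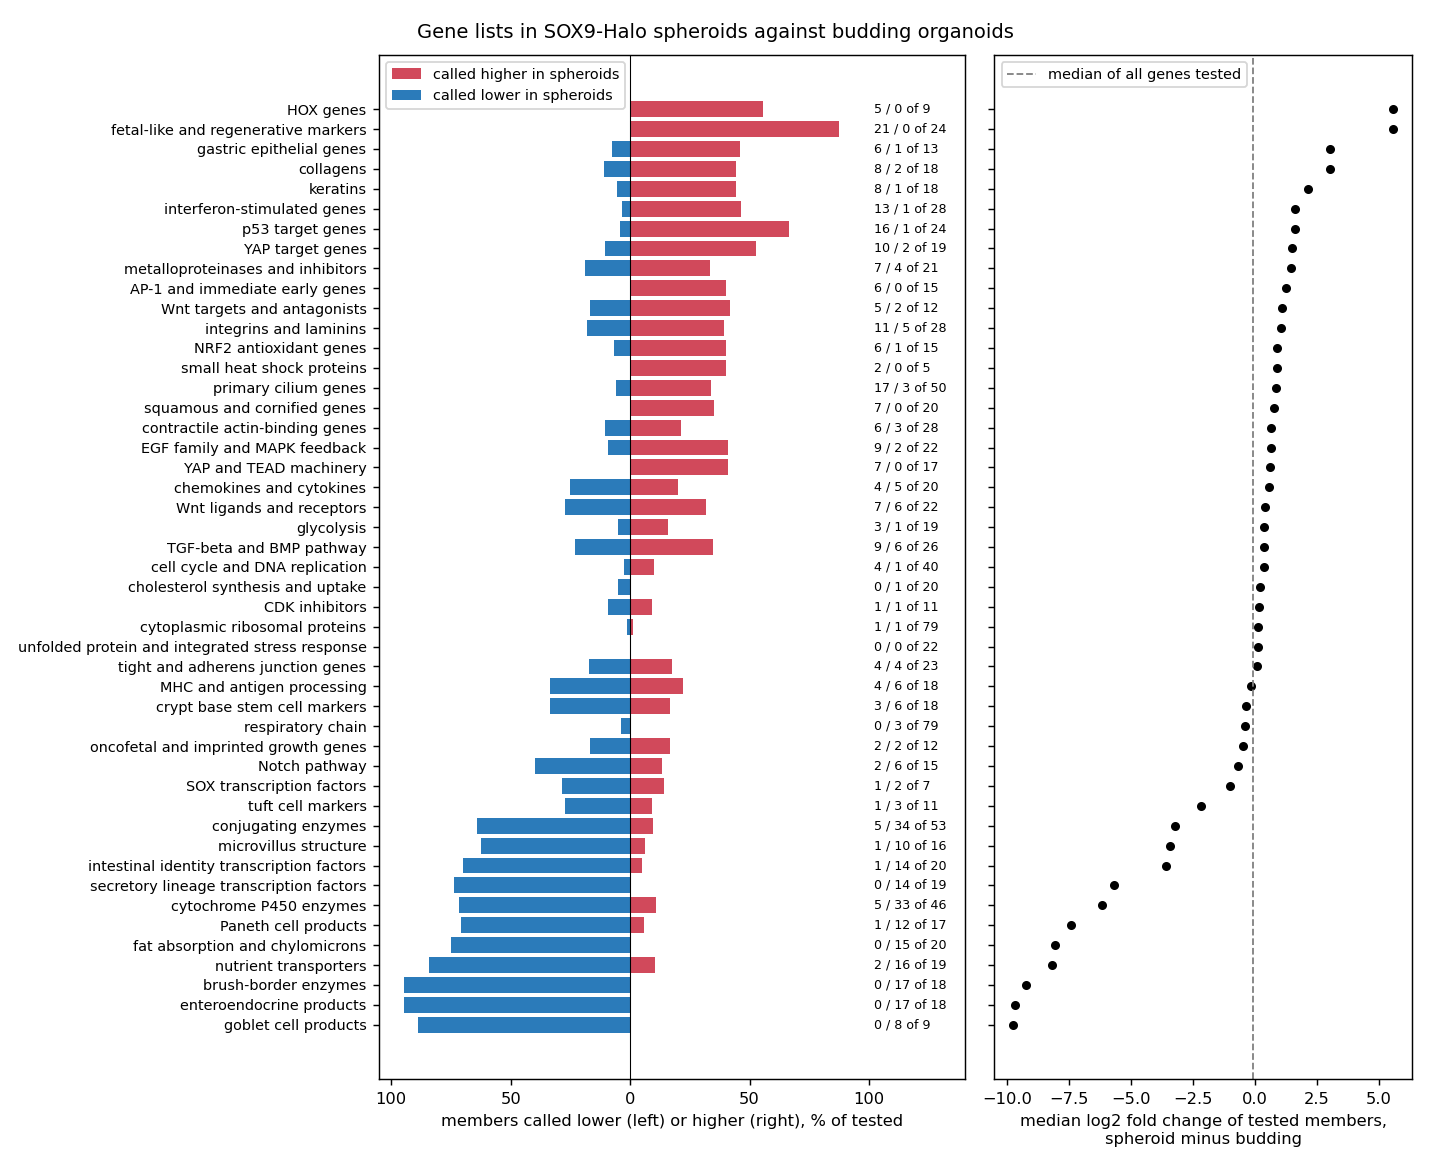
Share of the tested members of each gene list called lower (blue, to the left) or higher (red, to the right) in SOX9-Halo spheroids, and at the right the median log2 fold change of the tested members, with the dashed line at the median of all genes tested. Goblet, enteroendocrine, brush-border, transporter and fat absorption lists lie at the bottom with medians below -8, and the fetal-like list has 21 of 24 members called higher.

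The sequence upstream of the start was searched for short strings that these factors bind, in windows from 250 bases before to 50 bases after the annotated start of 17551 genes. HNF4 strings (CAAAGTCCA) stood in 1.43% of the windows of downregulated, 0.541% of upregulated and 0.564% of all genes tested, and HNF1 strings (GTTAATNAT) in 1.63%, 0.541% and 0.781%. GATA strings (AGATAA) stood in 11.3%, 7.9% and 9.12%, and CDX strings (TTTATGG or TTTATTG) in 6.31%, 5.52% and 5.75%. SOX strings (AACAATG or ACAAAGG) stood in 8.98%, 6.92% and 7.45%, the TEAD string (ACATTCC) in 4.06%, 3.62% and 3.28%, and the AP-1 string (TGAGTCA or TGACTCA, which are 1 string read on either strand) in 5.15%, 5.62% and 4.34%. Both strands were searched, HNF4 and SOX strings share the letters CAAAG, and no test was made. A match describes the letters only.

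The 5 promoters shown were chosen after the matches were seen, to show where such strings lie in genes that fell. Each is the 250 bases before the annotated start in GRCm39, on the strand of the gene, with the matched string in capitals, printed as its reverse complement where the match is on the other strand. Only strings of the factor named with each gene are marked. Strings of other searched factors stand in lower case, as in the Slc3a1 and Hnf4g stretches. The Hnf4g stretch (chr3:3698955-3699204, plus strand) and the Fabp1 stretch (chr6:71176559-71176808, plus strand) each hold 2 CDX strings, starting 209 and 97 bases before the start in Hnf4g and 173 and 35 in Fabp1. The Alpi (chr1:87029329-87029578, minus strand) and Slc3a1 (chr17:85335554-85335803, plus strand) stretches each hold 1 HNF4 string, at 19 and 68 bases, and the Apoa4 stretch (chr9:46151744-46151993, plus strand) holds 1 HNF1 string at 173 bases.
Hnf4g: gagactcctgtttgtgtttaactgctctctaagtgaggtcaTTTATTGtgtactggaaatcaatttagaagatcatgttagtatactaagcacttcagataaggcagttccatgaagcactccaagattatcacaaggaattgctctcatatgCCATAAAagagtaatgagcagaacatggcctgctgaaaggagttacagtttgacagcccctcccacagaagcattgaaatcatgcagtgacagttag
Fabp1: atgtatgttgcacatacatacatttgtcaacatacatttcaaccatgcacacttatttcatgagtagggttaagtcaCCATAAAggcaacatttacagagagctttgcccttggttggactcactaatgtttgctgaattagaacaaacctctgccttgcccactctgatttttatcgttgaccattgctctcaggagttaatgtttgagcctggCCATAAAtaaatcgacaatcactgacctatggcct
Alpi: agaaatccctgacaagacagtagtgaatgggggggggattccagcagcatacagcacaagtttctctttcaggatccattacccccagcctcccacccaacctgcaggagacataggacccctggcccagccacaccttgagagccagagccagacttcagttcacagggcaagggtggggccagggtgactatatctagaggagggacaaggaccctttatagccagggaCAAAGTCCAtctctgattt
Slc3a1: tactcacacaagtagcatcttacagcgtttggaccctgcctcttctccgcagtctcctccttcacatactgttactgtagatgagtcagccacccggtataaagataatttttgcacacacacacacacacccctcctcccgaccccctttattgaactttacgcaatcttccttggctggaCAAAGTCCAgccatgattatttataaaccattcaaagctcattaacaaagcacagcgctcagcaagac
Apoa4: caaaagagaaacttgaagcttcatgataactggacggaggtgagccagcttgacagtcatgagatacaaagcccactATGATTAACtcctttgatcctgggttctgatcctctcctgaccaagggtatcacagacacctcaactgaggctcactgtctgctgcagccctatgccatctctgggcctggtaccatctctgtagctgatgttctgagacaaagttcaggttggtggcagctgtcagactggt

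Markers of crypt base stem cells moved in both directions. Of 18 tested 6 were called down and 3 up (median log2 -0.37), where 14.7% and 10.5% of all genes tested were. Olfm4, a secreted glycoprotein of stem cells, went from 1310, 363 and 4592 to 3.55, 4.73 and 9.9 normalized counts (log2 -8.36 ± 1.76, edgeR adjusted p = 0.0013). Lgr5, the R-spondin receptor that marks the stem cells, fell less, from 787, 1822 and 1375 to 238, 342 and 387 (log2 -2.04 ± 0.54, edgeR adjusted p = 0.0068), to about the Halo-NLS mean of 387. Its call was lost when any 1 of the libraries other than budding library 1 was left out, with log2 fold changes of -1.74 to -2.25. Smoc2 (log2 -4.74 ± 0.79), Hopx (log2 -1.41 ± 0.30, not called in the fit of the 6 libraries alone) and the RNA-binding protein gene Msi1 (log2 -8.05 ± 0.90) fell as well. Tnfrsf19, a receptor of the same cells, rose from 6.36, 21.4 and 36.1 to 2274, 1688 and 1706 (log2 6.48 ± 0.80). Ascl2, Lrig1, Ephb2 and Bmi1 overlapped between the conditions and were not called.

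Wnt ligands changed places. Of 22 tested ligands and receptors 7 were called up and 6 down, where 10.5% and 14.7% of all genes tested were. Wnt3, the ligand made by Paneth cells, went from 186, 227 and 157 normalized counts to 0 in each spheroid library, at least 62.7-fold lower. Beside Wnt7b, Wnt10a went from 0, 0 and 0.976 to 145, 96.5 and 103, Wnt7a from 1.59, 3.89 and 1.95 to 210, 66.2 and 78.3, and Wnt4 from 8.75, 6.81 and 3.9 to 796, 416 and 335 (log2 6.27 ± 0.75). Among receptors Fzd6 (log2 3.23 ± 0.27) and the co-receptor gene Lrp5 (log2 2.14 ± 0.30) rose, and Fzd5 fell from 3500, 5130 and 4480 to 982, 904 and 1036. The R-spondin receptor gene Lgr4 fell by 1.71 ± 0.30 on the log2 scale.

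Wnt target genes did not move as 1 group. Of 12 tested 5 were called up and 2 down. Nkd1, a feedback inhibitor, rose from 7.16, 32.1 and 31.2 to 2795, 4820 and 5400 normalized counts (log2 7.54 ± 0.87), and Notum, a secreted Wnt inhibitor, from 13.5, 31.1 and 17.6 to 541, 388 and 430 (log2 4.45 ± 0.49). Rnf43, a ligase that removes Wnt receptors, rose by 1.30 ± 0.26 on the log2 scale. Axin2 lay higher in every spheroid library, at 2588, 3771 and 3946 against 769, 974 and 2466, without passing the test (log2 1.29 ± 0.53, edgeR adjusted p = 0.067), and was called in the fit that pairs the replicate numbers (log2 1.42). Sp5, in contrast, went from 27, 57.4 and 112 to 0, 0.946 and 0, a ratio of 189 (exact 95% counting interval 33.6 to 7513).

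In the Notch pathway 6 of 15 tested genes were called down and 2 up, where 14.7% and 10.5% of all genes tested were. Dll4, a ligand of secretory progenitors, fell from 207, 276 and 180 to 5.92, 0 and 2.7 normalized counts, and Dll1 fell by 1.39 ± 0.32 on the log2 scale, a call that was lost without spheroid library 2. The receptor gene Notch3 rose from 21.5, 94.4 and 51.7 to 2795, 3386 and 2757 (log2 5.74 ± 0.49), and the ligand gene Jag2 rose by 1.88 ± 0.30. Notch1 and Jag1 overlapped and were not called. Of 22 genes of the EGF family and of MAPK feedback 9 were called up and 2 down. The ligand gene Hbegf rose from 183, 224 and 151 to 1599, 1344 and 1478 (log2 2.99 ± 0.22), while Areg was lower in every spheroid library without passing the test (log2 -0.68 ± 0.44). Feedback genes Spry1, Spry2, Spry4, Dusp4, Etv5 and Phlda1 were called up, the last by 3.01 ± 0.31, and Dusp5 was called down. The Dusp4 call was lost in the fit of the 6 libraries alone and without budding library 1, budding library 3 or spheroid library 1.

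Of 26 genes of the TGF-beta and BMP pathway 9 were called up and 6 down, where 10.5% and 14.7% of all genes tested were. Tgfb3 went from 0.796, 0.973 and 3.9 to 746, 769 and 990 normalized counts (log2 8.74 ± 0.65). Tgfb1 rose by 3.77 ± 0.64. Tgfbi, named for its induction by TGF-beta, went the other way, from 201, 174 and 188 to 0 in each spheroid library, at least 62.0-fold lower. Bmp3 fell from 239, 229 and 181 to 1.18, 0 and 0. The BMP response genes were split, with Id3 down from 136, 144 and 192 to 19, 23.6 and 14.4 (log2 -3.04 ± 0.27) and Id2 up by 1.66 ± 0.33.

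Nearly all genes of the fetal-like and regenerative list rose. The study named some of the 25 listed genes from these libraries, so the count is not independent evidence of their direction. Of 24 tested 21 were called up and none down, with a median log2 fold change of 5.59. Clu, a secreted chaperone that marks revival stem cells, rose from 571, 459 and 1475 to 63690, 69511 and 84508 normalized counts (log2 6.44 ± 0.57, edgeR adjusted p = 3.5e-07), against 294 in Halo-NLS organoids. Ly6a, which encodes the surface protein SCA1, rose from 56.5, 65.2 and 247 to 9283, 4747 and 5640 (log2 5.74 ± 0.57). Budding library 3 was the highest of the budding libraries for both genes and far below the spheroids.

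Msln, which encodes mesothelin, rose from 152, 197 and 894 to 41243, 33753 and 27974 (log2 6.37 ± 0.75). The alarmin gene Il33 (log2 7.08 ± 0.42), the gap junction gene Gja1 (log2 7.65 ± 0.63) and the osteopontin gene Spp1 (log2 7.13 ± 0.62) also rose, as did Ly6d, from 33.4, 56.4 and 85.9 to 31369, 19671 and 21788. The 3 genes that were not called were Areg, Tm4sf1 and Basp1. Tm4sf1 had 3.98, 10.7 and 4.88 normalized counts in budding organoids and 9.48, 2.84 and 5.4 in spheroids, and Basp1 was below 10 in all 6 libraries.

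YAP1 and its paralog TAZ, encoded by Wwtr1, carry the signal of the Hippo pathway to TEAD factors in the nucleus. Yap1 itself was level, with 2532, 3161 and 3151 normalized counts in budding organoids and 2491, 2859 and 3008 in spheroids (log2 -0.08 ± 0.18, edgeR adjusted p = 0.76). Wwtr1 rose from 5.57, 9.73 and 17.6 to 1361, 1212 and 1128 (log2 6.82 ± 0.48, edgeR adjusted p = 4.4e-08). Tead4 rose from 37.4, 46.7 and 79 to 1093, 1137 and 1113 (log2 4.36 ± 0.41), and Tead2 rose by 2.29 ± 0.58 with a call that was lost without any 1 library except spheroid library 1, while Tead1 and Tead3 overlapped and were not called. The motin genes Amotl1 (log2 7.80 ± 0.56) and Amotl2 (log2 3.08 ± 0.30), whose products hold YAP1 at the membrane, rose too. In all, 7 of 17 tested genes of the machinery were called up and none down, with a median log2 fold change of 0.60.

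Of 19 YAP target genes tested 10 were called up and 2 down. Ccn2, a matricellular protein gene, went from 0.796, 5.84 and 0.976 to 1316, 876 and 877 normalized counts (log2 8.64 ± 0.71), and Ccn1 from 34.2, 74.9 and 67.3 to 522, 388 and 533 (log2 3.03 ± 0.39). Ankrd1, a nuclear ankyrin repeat protein, rose by 7.85 ± 0.69 and the membrane repair gene Myof by 6.65 ± 0.31 on the log2 scale. Those that were called down were Fjx1 (24.7, 43.8 and 13.7 against 0, 0.946 and 0) and Arhgef17 (log2 -5.89 ± 0.67). Crim1, Nuak2 and Nt5e overlapped between the conditions. Of 15 AP-1 and immediate early genes, which act beside TEAD factors at many enhancers, 6 were called up and none down, among them Fosl1 (log2 4.69 ± 0.79), and Jun was level (log2 0.00 ± 0.26).

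Genes of other epithelia appeared in part. Of 18 keratins tested 8 were called up and 1 down. Krt7, a keratin of simple ducts, rose from 1956, 2552 and 1891 to 42927, 41873 and 38662 normalized counts (log2 4.27 ± 0.31). Krt79 rose from 1.59, 0 and 3.9 to 807, 1023 and 833 (log2 8.84 ± 0.75), and the basal keratin Krt14 from 0, 0.973 and 0.976 to 237, 239 and 183. Krt20, the keratin of mature intestinal cells, fell from 5343, 4420 and 3010 to 19, 5.68 and 6.3 (log2 -8.73 ± 0.72). Krt8 was level at 49457 to 69242 in budding and 64397 to 71176 in spheroid libraries.

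Of 20 squamous and cornified genes 7 were called up and none down. Ivl, which encodes involucrin of the cornified envelope, went from 1.59, 0 and 0.976 to 2791, 1234 and 1275, a ratio of 1859 (exact 95% counting interval 636 to 9019). The desmosomal cadherin gene Dsg3 rose by 6.87 ± 0.49 on the log2 scale. Of 13 gastric genes 6 were called up and 1 down. Pgc, the pepsinogen C gene, rose from 11.9, 29.2 and 70.2 to 9529, 4258 and 6842 (log2 7.54 ± 0.59), and the gastric protease gene Ctse from 11.9, 4.87 and 4.88 to 2646, 1496 and 1551 (log2 7.98 ± 0.50). Gkn3, a gastrokine, fell from 108, 103 and 237 to 15.4, 8.51 and 16.2. The trefoil genes Tff1 and Tff2 overlapped between conditions.

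HOX genes set position along the body axis. Of 39 listed 9 passed the filter on low counts, all of the Hoxa cluster, and 5 were called up. Hoxa7 (chromosome 6, 52191471 to 52198834) rose from 1.59, 0.973 and 2.93 to 512, 602 and 670 normalized counts (log2 8.26 ± 0.50, edgeR adjusted p = 1.2e-08). Hoxa10 had no count in budding organoids and 222, 194 and 173 in spheroids, at least 71.5-fold higher, and Hoxa5 rose by 5.59 ± 0.58. Every spheroid library lay above every budding library for all 9, against 24.6% of all genes tested. Genes at about 0 in budding organoids, such as Hoxa7 and Hoxa10, passed the filter only through other libraries. The count is therefore not evidence of a common direction. Hoxa2, Hoxa3, Hoxa4 and Hoxa9 were not called. Several of the 9 genes overlap one another and strand was not used in counting. Of the oncofetal genes Igf2bp1 rose from 3.98, 1.95 and 5.85 to 199, 235 and 243 (log2 5.80 ± 0.86) and its paralog Igf2bp3 fell from 282, 274 and 179 to 1.18, 0 and 2.7.

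**Figure D3:**
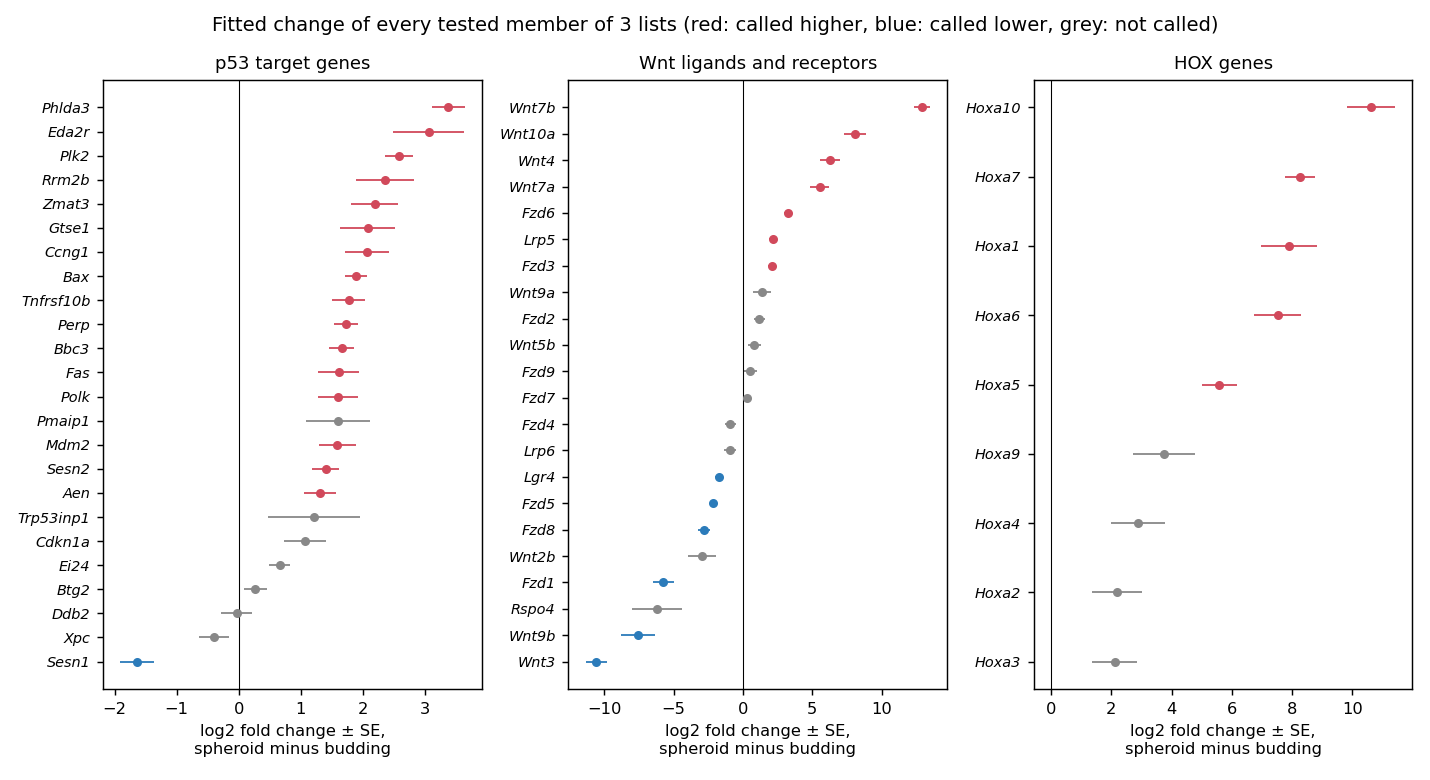
Fitted log2 fold change (spheroid minus budding, horizontal axis, with bars of 1 SE) of every tested member of the p53 target, Wnt ligand and receptor, and HOX lists, 3 libraries per condition. All but 3 p53 target genes lie above 0, Wnt ligands and receptors spread from Wnt3 at the bottom to Wnt7b at the top, and all 9 HOX genes lie above 0.

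Genes of the basement membrane and its receptors changed in both directions. Of 28 integrin and laminin genes 11 were called up and 5 down, and of 18 collagens 8 were up and 2 down. Lama5 rose from 92.3, 324 and 344 to 17910, 23503 and 20065 normalized counts (log2 6.34 ± 0.59), Col18a1 from 46.1, 64.2 and 82 to 8142, 8687 and 8544 (log2 7.05 ± 0.40), and Col4a2 by 5.91 ± 0.82, with 471 in budding library 3 against 38.2 and 68.1. Itgb4, which binds laminin in hemidesmosomes, rose by 2.53 ± 0.35. The collagen receptor subunits Itga1 and Itga2 fell instead, Itga2 from 442, 405 and 856 to 8.29, 0.946 and 4.5 (log2 -6.97 ± 0.68).

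Of 21 metalloproteinases and inhibitors 7 were called up and 4 down. Plau, the urokinase gene, rose by 8.32 ± 0.76, Timp2 by 6.88 ± 0.39 and the membrane-bound Mmp15 by 3.33 ± 0.32 on the log2 scale. Of 23 junction genes 4 were called up and 4 down, shares near those of all genes tested (10.5% and 14.7%). Cdh17, the liver-intestine cadherin, fell from 30318, 32152 and 26607 to 19, 16.1 and 56.7 (log2 -9.90 ± 0.58), Cldn15 fell by 9.81 ± 0.81, Cldn4 rose by 2.60 ± 0.38, and the E-cadherin gene Cdh1 was not called (log2 0.31 ± 0.23). Among 28 contractile and actin-binding genes 6 were up and 3 down, the share down being below the 14.7% of all genes tested. Cnn2 rose by 3.90 ± 0.25, Pdlim1 fell from 3013, 4425 and 4291 to 267, 248 and 290, and Actb was level (log2 -0.10 ± 0.23).

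Genes of the primary cilium, a sensory organelle of resting and of many epithelial cells, were called up in 17 of 50 cases and down in 3, with a median log2 fold change of 0.86. Ift57, an intraflagellar transport gene, rose from 9.55, 2.92 and 7.8 to 293, 285 and 231 normalized counts (log2 5.27 ± 0.43), and Ttc8 of the BBSome from 18.3, 6.81 and 24.4 to 307, 265 and 275 (log2 4.08 ± 0.43). The Hedgehog ligand gene Ihh and the receptor gene Smo, listed with them, fell by 2.71 ± 0.47 and 1.90 ± 0.37 on the log2 scale.

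Proliferation genes did not move as a group. Of 40 cell cycle and DNA replication genes 4 were called up and 1 down, where 10.5% and 14.7% of all genes tested were. The share called up was thus near that of all genes. The median log2 fold change of the list was 0.36. Mki67 was at 3691, 1081 and 8451 in budding organoids and at 999, 1274 and 1711 in spheroids (log2 -1.73 ± 0.82, edgeR adjusted p = 0.11). The rises were in the 3 D-type cyclins and Rrm1, the last with a call lost without any 1 of 4 libraries (budding 1 and 2, spheroid 2 and 3), and Ccnd1, which drives exit from G1, went from 775, 1091 and 1899 to 13655, 14682 and 15728 (log2 3.55 ± 0.36). E2f2 was the one called down, from 2957, 4506 and 2611 to 150, 191 and 208.

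Cdkn2a (chromosome 4, 89192708 to 89212890), which encodes both the CDK inhibitor p16INK4A and the MDM2 inhibitor p19ARF, was at 3.18, 1.95 and 3.9 normalized counts in budding organoids and at 1205, 1828 and 1736 in spheroids (log2 8.98 ± 0.38, edgeR adjusted p = 1.2e-09). Counts per gene do not separate its 2 products. Cdkn2a was the one called up among 11 tested genes listed under CDK inhibitors, a list that also holds Trp53, Rb1, Rbl1 and Rbl2. Of the 11, 1 was called down, and the median log2 fold change was 0.17. Among all genes tested 10.5% were called up and 14.7% down. The one called down was Cdkn1c, the p57 gene, from 171, 132 and 104 to 5.92, 12.3 and 15.3 (log2 -3.57 ± 0.46). Cdkn1a, the p21 gene, lay higher in every spheroid library, at 13201, 8598 and 7533 against 4795, 6006 and 3139, without a call in the comparison over all libraries (log2 1.07 ± 0.34, edgeR adjusted p = 0.018) and with one in the fit that pairs the replicate numbers. Trp53 was level (log2 0.17 ± 0.28). Of 24 p53 target genes 16 were called up and 1 down, with a median log2 fold change of 1.60. Phlda3 rose from 663, 820 and 1007 to 7820, 9483 and 8577 (log2 3.38 ± 0.26), Ccng1 by 2.07 ± 0.36, Bax by 1.89 ± 0.18 and Mdm2 by 1.59 ± 0.30 on the log2 scale, and Sesn1 fell by 1.64 ± 0.27.

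Stress and defence genes differed by list. None of 22 genes of the unfolded protein and integrated stress response was called (10.5% and 14.7% of all genes were), and Hspa5 was level (log2 0.05 ± 0.23). Of the 22, 3 had an adjusted p at most 0.01 and a fold change under 2. Of 5 genes tested in the list of small heat shock proteins 2 were called up and none down. Hspb8 rose from 1.59, 5.84 and 1.95 to 2508, 2735 and 2625 normalized counts (log2 9.69 ± 0.46) and Cryab from 2.39, 3.89 and 6.83 to 2149, 2168 and 2235 (log2 8.96 ± 0.55), while Hspb1 was below 4 in all 6 libraries (log2 -2.65 ± 0.92) and was not called. Of 15 NRF2 antioxidant genes 6 were called up and 1 down. Hmox1 rose from 386, 433 and 285 to 9219, 3499 and 2487, highest in spheroid library 1, and Nqo1 fell from 3134, 2842 and 3513 to 54.5, 41.6 and 16.2 (log2 -6.41 ± 0.60).

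Of 28 interferon-stimulated genes 13 were called up and 1 down. Oas1a rose from 27, 61.3 and 10.7 to 665, 544 and 686 (log2 4.26 ± 0.48) and Bst2 by 2.09 ± 0.18, in all 3 spheroid libraries alike. Ifit1 was at 315 in spheroid library 1 and at 27.4 and 31.5 in the others and was not called. Of 20 chemokines and cytokines 5 were called down and 4 up, where 14.7% and 10.5% of all genes tested were. Ccl25, the gut-homing chemokine of the small intestine, fell from 19599, 15254 and 11338 to 191, 213 and 228 (log2 -6.19 ± 0.56). Ccl20 was at 590 in spheroid library 1 and at 16.1 and 13.5 in the others, against 82.7 to 140 in budding organoids.

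Housekeeping lists moved little. Of 79 ribosomal protein genes 1 was called up and 1 down, of 79 respiratory chain genes 3 were down and none up, of 20 genes of cholesterol synthesis and uptake 1 was down and none up, and of 19 genes listed under glycolysis 3 were up and 1 down. Hk1 rose from 2061, 3903 and 1141 to 17205, 16961 and 16835 normalized counts (log2 2.84 ± 0.39), while Gapdh was not called (log2 0.46 ± 0.34).

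The identity of the cells as an epithelium was checked with fixed markers. Summed over 7 epithelial markers, the libraries held 170300 to 217900 normalized counts in budding organoids and 212400 to 234700 in spheroids, with Krt18 called up and Epcam and Cldn7 called down, the Cldn7 call being lost without budding library 2 or spheroid library 1. Epcam fell from 34567, 33106 and 30008 to 16219, 15401 and 14770 (log2 -1.07 ± 0.16), and by less than 2-fold when the trend with GC content was removed. Villin was present as given above. Markers of other cell types were summed in the same way, and their part in the results was not tested. The 8 fibroblast markers summed to 22.28 to 39.02 in budding and 17.03 to 49.75 normalized counts in spheroid libraries. Among them Pdgfrb was called down (log2 -3.71 ± 0.64), and Col1a1 lay higher in every spheroid library without a call (log2 2.35 ± 0.65). The 5 endothelial markers, in budding organoids mostly Pecam1, summed to 12.68 to 24.33 and 1.184 to 3.601. The 8 immune markers, in budding organoids mostly Itgam and Lyz2, summed to 56.44 to 83.53 and 2.838 to 4.738. Ptprc among them was at 0, 0 and 0.976 in budding libraries. The 5 smooth muscle markers, mostly Smtn, summed to 239.5 to 473.2 and 239.3 to 364.6, and Des among them rose from 1.59, 0 and 0 to 27.2, 55.8 and 51.3 (log2 5.97 ± 1.11). The neuron and glia markers fell from 1243 to 1666 down to 28.38 to 61.59 through Ret, which enteroendocrine cells also express, and S100b (687, 633 and 1142 against 29.6, 13.2 and 9).

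The SOX9-mEGFP line, sequenced in both forms and sharing no library with the comparison, though with another second transgene in its spheroids, was used to ask which changes differ between lines. The difference of the 2 changes passed the same thresholds upwards in 318 genes (1.81% of those tested) and downwards in 979 (5.58%). Of the 1851 genes called up in SOX9-Halo spheroids 1680, or 90.8%, had a change of the same sign in the SOX9-mEGFP line, and of the 2584 called down 2242, or 86.8%. Among all genes tested the share was 69.2% of those with a change above 0 and 71.9% of those below 0. The change was called lower in the SOX9-Halo line for 832 of the genes called down, and higher for 254 of those called up. Those genes were chosen by the SOX9-Halo change, which is part of the difference, so the choice alone favours these directions. The number of upward differences fell from 318 to 199 without SOX9-Halo budding library 1. It was 199 and 206 without SOX9-Halo spheroid library 2 or 3, and 196 and 180 without SOX9-mEGFP spheroid library 1 or 2. Over all removals of 1 library it ranged from 180 to 336, and the cause was not tested.

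Of the 20 intestinal identity factors tested, 12 had a called difference, each of them lower in the SOX9-Halo line. Hnf4a changed by -4.36 on the log2 scale in the SOX9-Halo line and by -0.96 in the SOX9-mEGFP line, Cdx2 by -6.78 and -1.94, and Hnf4g by -12.08 and -3.31. The same held for 11 of 18 brush-border enzymes and 7 of 9 goblet cell products. Tff3 changed by -9.75 and -0.77, and Cdh17 by -9.90 and -0.63. Of the fetal-like list 19 of 24 genes had no called difference, and Clu changed by 6.44 and 7.94. In the rest of that list Spp1, Tm4sf1 and Basp1 were called lower and Il33 and Krt7 higher in the SOX9-Halo line. Of all genes tested 5.58% were called lower and 1.81% higher. The difference was not called for Wwtr1, Tead4, Ccn2 and Cdkn2a, whose changes in the SOX9-mEGFP line were 6.20, 3.34, 7.76 and 8.27.

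For some genes the fitted changes of the lines differed widely. Wfdc2 rose by 12.85 in the SOX9-Halo line and by 0.88 in the SOX9-mEGFP line, Hoxa7 changed by 8.26 and -0.82, Hoxa5 by 5.59 and -3.13, Tgfb3 by 8.74 and -1.18, Wnt4 by 6.27 and -0.56, and Igf2bp1 by 5.80 and -0.81. In the other direction, Basp1 changed by -2.31 and 9.53, Tm4sf1 by -0.16 and 7.92, Mmp7 by -3.67 and 5.26, and Id3 by -3.04 and 2.76. Each of these differences was called.

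**Figure D4:**
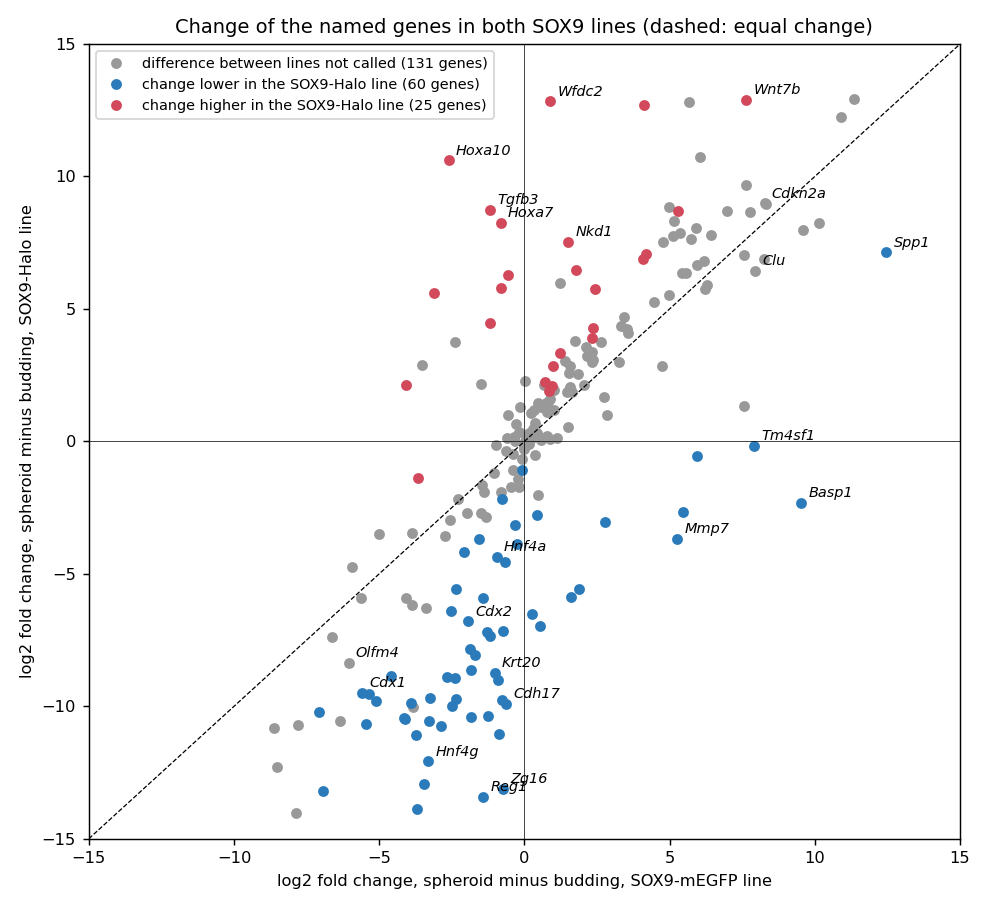
Fitted log2 fold change, spheroid minus budding, of the genes named in the text in the SOX9-mEGFP line (horizontal) and the SOX9-Halo line (vertical), with the dashed line at equal change. Grey points had no called difference between lines, blue points changed lower and red points higher in the SOX9-Halo line, with Hoxa7, Tgfb3 and Wfdc2 far above and Basp1, Tm4sf1 and Mmp7 far below the line.

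Changes were not spread evenly over the chromosomes. The median log2 fold change of tested genes was 0.41 on chromosome 8 (972 genes) and 0.46 on chromosome 19 (656 genes), against -0.24 to 0.00 on each of the other autosomes and the X chromosome. Of tested genes 23% were called up on chromosome 19, 16.5% on chromosome 8 and 16.1% on chromosome 15, whose median was 0.00, against 10.5% of all genes tested. Against the budding mean, the 3 spheroid libraries had medians of 0.49, 0.53 and 0.47 on chromosome 19 and of 0.38, 0.42 and 0.41 on chromosome 8. In the SOX9-mEGFP spheroids the medians were -0.40, -0.45 and -0.33 on chromosome 19, -0.02, -0.03 and 0.01 on chromosome 8, and 0.40, 0.46 and 0.46 on chromosome 18. Among genes with a mean of at least 100 normalized counts the medians were 0.65 on chromosome 19 and 0.55 on chromosome 8. Chromosome copy number was not tested.

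**Figure D5:**
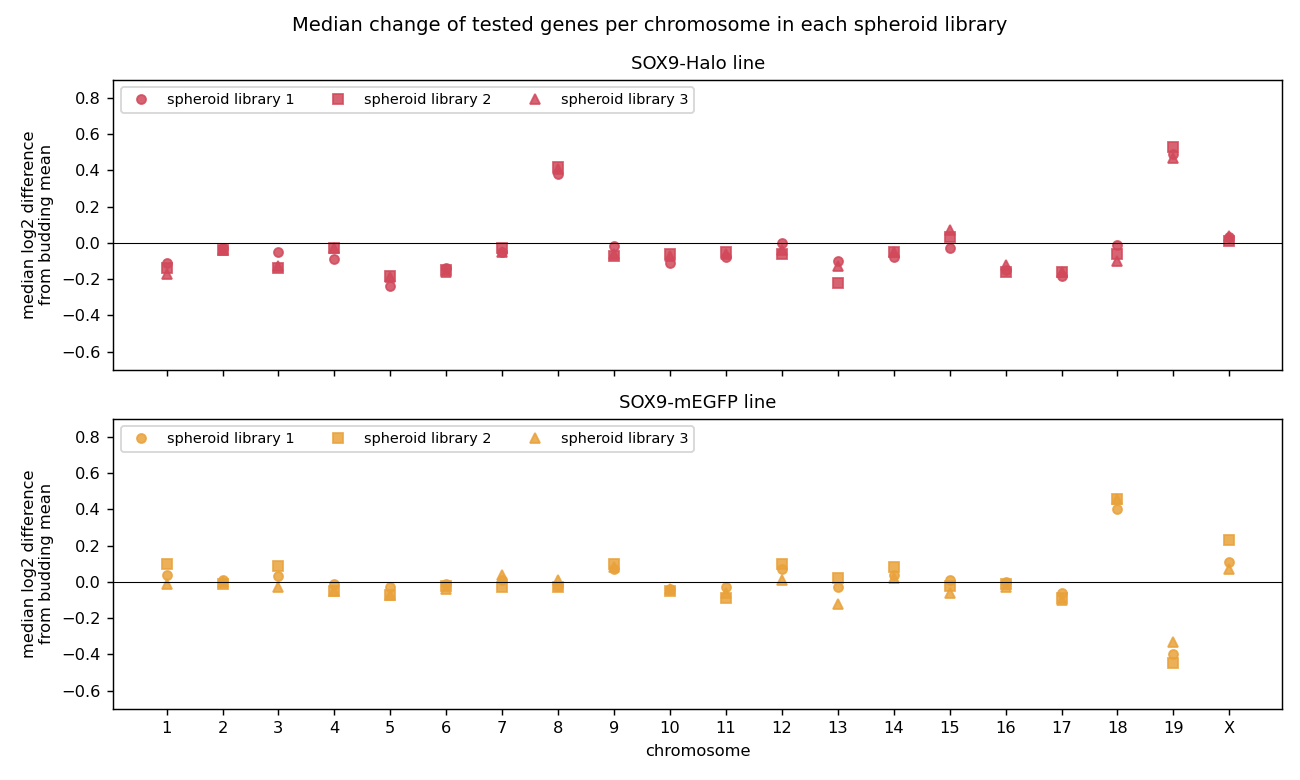
Median log2 difference of tested genes from the mean of the budding libraries of the same line, by chromosome, for each SOX9-Halo (top) and SOX9-mEGFP (bottom) spheroid library. In the SOX9-Halo line chromosomes 8 and 19 lie above 0 in all 3 libraries, and in the SOX9-mEGFP line chromosome 19 lies below and chromosome 18 above.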

How the data were processed

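Poly-A RNA of 15 organoid cultures, 3 biological replicates of each of 5 conditions, was sequenced in pairs. The authors trimmed reads with cutadapt 4.5, mapped them with STAR onto mm39 and counted uniquely mapped pairs for each Ensembl gene with HTSeq 2.0.2 in union mode without strand. The deposited values used here are these raw counts. Reads of overlapping genes were left out of them (9.65 to 13.6% ambiguous), and antisense partners cannot be told apart. The 7 tables of the authors' own comparisons, which hold fold changes and p-values, were not used.

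Counts were tested with edgeR 4.0.16 (R 4.3.3) by TMM scaling, filterByExpr and the quasi-likelihood F test over all 15 libraries, with Benjamini-Hochberg adjustment over 17560 genes, and each SE was derived from the log2 change and its F statistic. DESeq2 1.42.0 and the other settings in the closing section were alternatives. Deviations from the condition means of same-numbered budding and spheroid libraries, whose numbers come from the labels, correlated at 0.275, 0.162 and 0.24 over genes. The mean of -0.116 for other pairs is no separate baseline, since deviations within a condition sum to 0. Each same-numbered correlation exceeded the set threshold of 0.1, so the numbers were taken to pair the samples. The main fit did not use the pairing. Ratios with few counts carry exact 95% counting intervals. Genes at 0 in every library of 1 condition carry a bound from a floor of 3 counts per library. Depth was 28062722 to 40559766 reads on genes.

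Genes were named by a rule, which took Sox9 first. It then took the 6 largest called rises and falls without overlap between conditions. Their mean had to be at least 100 normalized counts in the 6 libraries. The rule also took the most abundant and most changed members of each list and a few key genes. Members of the identity, stem cell, fetal-like and YAP lists could be named as well. Other named genes were chosen after their values were seen. The members and lists were chosen with earlier results of these data known. Promoters came from the GRCm39 genome and GENCODE M39. Most list members enter the counts and medians only, and some items are not reported here.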

Additional observations from a re-analysis of the deposited data

Results flagged for a closer look

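Each of the following results stood out because the change from budding to spheroid organoids differed between the SOX9-Halo and the SOX9-mEGFP line. The difference of the 2 changes was tested as an interaction with edgeR's quasi-likelihood test, and it was called higher in the SOX9-Halo line for 318 genes and lower for 979. Values are log2 differences, SOX9-Halo minus SOX9-mEGFP, with 3 libraries in each of the 4 conditions. For a gene at or near 0 in a condition the fitted size depends on the prior count. Genes named for a large change in the SOX9-Halo line carry that change into the difference.

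Among transcription factors it was -3.89 for Cdx1, -3.41 for Hnf4a, -2.12 for Gata6, -7.34 for Creb3l3, -6.19 for Nr5a2, -8.09 for Atoh1, -6.31 for Insm1 and -2.11 for E2f2. In the same group it was -4.84 for Cdx2, -8.77 for Hnf4g, -3.24 for Pdx1, -6.79 for Nr1i2, -3.25 for Ppara, -5.97 for Neurog3, -3.89 for Sox12 and -6.41 for Sp5. For enterocyte enzymes, transporters and structural genes it was -6.39 for Sis, -10.19 for Mep1a, -8.59 for Apoa4, -7.85 for Ces2a, -7.47 for Cyp2c55, -4.24 for Slc5a1, -9.11 for Cdhr5, -2.83 for Vil1, -9.27 for Cdh17 and -1.01 for Epcam. In the same group it was -6.44 for Alpi, -7.36 for Abcg5, -5.23 for Fabp1, -4.47 for Cyp1a1, -6.51 for Slc3a1, 1.88 for Slc1a1, -5.95 for Myo1a, -7.71 for Krt20 and -4.70 for Cldn15. For secretory cell products and genes that fell to about 0 it was -4.19 for Lyz1, -8.93 for Mmp7, -8.98 for Tff3, -12.00 for Reg1, -6.24 for Npl and -7.47 for S100b. In the same group it was -3.14 for Defa24, -5.91 for Fcgbp, -12.38 for Zg16, -10.17 for Chp2, -9.46 for Btnl6 and 3.40 for Ptgs1. For HOX genes and signalling genes it was 6.21 for Hoxa3, 9.08 for Hoxa7, 6.83 for Wnt4, -1.40 for Fzd5, 5.64 for Notum, 2.27 for Dll1, 9.92 for Tgfb3, -6.20 for Bmp3, 6.61 for Igf2bp1 and -6.36 for Msi1. In the same group it was 8.72 for Hoxa5, 13.23 for Hoxa10, 5.26 for Wnt7b, 6.03 for Nkd1, 3.30 for Notch3, 1.54 for Spry1, -7.29 for Tgfbi, -5.81 for Id3 and 4.72 for Tnfrsf19. For the other genes it was 8.59 for Aldh3a1, -11.85 for Basp1, 1.14 for Bst2, -8.12 for Hspb1, 2.91 for Il33, -7.52 for Itga2, 2.10 for Mmp15, -6.48 for Nt5e, -5.33 for Spp1 and -8.08 for Tm4sf1. It was also -7.48 for Arhgef17, 1.06 for Bax, 1.58 for Cnn2, -6.78 for Itga1, 1.90 for Krt7, -3.87 for Nqo1, -3.63 for Pdlim1, 2.81 for Timp2 and 11.96 for Wfdc2.

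On chromosomes 18 and 19 the medians of the spheroid libraries lay on opposite sides of 0 in the lines. The fitted median was -0.08 on chromosome 18 and 0.46 on chromosome 19 in the SOX9-Halo line, and every SOX9-mEGFP spheroid library lay above 0 on chromosome 18 and below 0 on chromosome 19. This difference was not tested.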

How the results depend on the processing

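Numbers of up- and downregulated genes stayed within 1.5 times the reported 1851 and 2584 under DESeq2 (1988 and 2779), RLE scaling, library sizes alone, a removed GC trend, no filter on low counts and the 6 libraries alone, and a required log2 fold change of 2 left 1111 upregulated genes. Without any 1 library they ranged from 1579 to 1844 and from 2237 to 2442. In the fit with the replicate number as a block they were 1852 and 2463, of which 1731 and 2296 were shared. Among named genes the block added calls for Axin2 and Cdkn1a and changed no other call. The number of genes whose change was higher in the SOX9-Halo line was 535 with DESeq2 and ranged from 180 to 336 without any 1 library, with 199, 199, 206, 196 and 180 without the libraries named in the report, and the cause was not tested. The number whose change was lower ranged from 718 to 917.

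Of 3012 pairs of a named gene and an alternative 2971 kept their direction and side of the threshold, 27 lost and 13 gained a call, and 199 of 216 genes kept both throughout. Ccl20, which was not called, went from 1.00 to -2.77 on the log2 scale without SOX9-Halo spheroid replicate 1. The median of chemokines and cytokines went from 0.57 to -0.37 without the same library. It was -0.08 with the block and -0.20 with the block and the GC trend removed. That of the list under CDK inhibitors went from 0.17 to -0.04 without budding replicate 1 and -0.03 without spheroid replicate 3. Removing the GC trend moved the median of all genes from -0.08 to 0.01. Genes at a few counts per library carry folds that depth limits.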
